A study of Mus musculus with 24 samples.

Results

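The genes described here are 7 enzymes of cholesterol synthesis (*Hmgcs1*, *Idi1*, *Fdps*, *Fdft1*, *Sqle*, *Lss* and *Cyp51*) and *Insig1*, a sterol-sensing regulator of the same pathway, 8 of the 21368 genes named on the array. They were chosen by name, as genes known to be targets of the transcription factor SREBP2, and all probes whose accession belongs to them were taken, 10 of 55681. *Fdft1* and *Hmgcs1* have 2 probes each and are represented by the brighter, and the other 6 genes have 1. The same 6 males, 3 of each genotype, gave liver, brain, heart and skeletal muscle, and each of the 24 RNA samples went onto its own Agilent array in 1 color. *Rap1* KI/KI mice, labelled MUT, were homozygous for the I312R allele of the gene for the telomere protein RAP1, a germline change made with CRISPR/Cas9 that all their cells carry, and the line was backcrossed 4 times to C57BL6 mice (C57BL/6N in the methods). The WT mice were littermates, and no treatment is named for either group. The labels give an age of 5 months for WT1 and KI1, and of 2 months for WT2, WT3, KI2 and KI3.

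Cholesterol is built from acetyl-CoA by a chain of enzymes in the cytosol and endoplasmic reticulum. When membranes run low in sterol, the escort protein SCAP carries SREBP2 to the Golgi, where it is cut and released to the nucleus to switch on nearly the whole chain, and INSIG proteins hold SCAP back when sterol is plentiful. Liver makes cholesterol for lipoproteins and bile acids, and the brain makes its own, because plasma lipoproteins do not cross the blood-brain barrier.

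SREBP2 binds sterol regulatory elements next to sites for the general factors NF-Y and Sp1. The RefSeq promoter table (build GRCm38.p6) matched 5 of the 8 genes, and their bases before the transcription start are shown to place these motifs, with matches in capitals. The Lss window stops where its annotated gene begins. The motifs searched, on both strands, were TCACNCCAC (a sterol regulatory element), CCAAT (NF-Y), GGGCGG (Sp1) and CACGTG (the E-box), and no matches overlapped.
Hmgcs1 (chr13:119690101-119690350, + strand): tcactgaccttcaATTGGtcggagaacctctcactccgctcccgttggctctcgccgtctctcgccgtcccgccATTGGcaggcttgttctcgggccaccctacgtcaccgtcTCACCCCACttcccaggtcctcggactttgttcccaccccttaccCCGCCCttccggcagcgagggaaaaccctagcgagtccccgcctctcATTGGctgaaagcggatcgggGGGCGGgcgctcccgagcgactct
Idi1 (chr13:8885356-8885605, + strand): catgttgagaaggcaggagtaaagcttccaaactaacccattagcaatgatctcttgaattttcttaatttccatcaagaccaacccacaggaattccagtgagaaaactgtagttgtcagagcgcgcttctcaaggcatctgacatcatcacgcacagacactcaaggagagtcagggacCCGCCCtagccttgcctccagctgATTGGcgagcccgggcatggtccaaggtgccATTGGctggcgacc
Insig1 (chr5:28071162-28071411, + strand): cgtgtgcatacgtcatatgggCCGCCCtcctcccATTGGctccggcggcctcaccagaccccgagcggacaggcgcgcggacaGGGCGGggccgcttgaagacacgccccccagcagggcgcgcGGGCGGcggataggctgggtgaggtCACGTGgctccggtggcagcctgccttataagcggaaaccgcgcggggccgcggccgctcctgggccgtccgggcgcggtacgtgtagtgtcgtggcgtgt
Lss (chr10:76531355-76531564, + strand): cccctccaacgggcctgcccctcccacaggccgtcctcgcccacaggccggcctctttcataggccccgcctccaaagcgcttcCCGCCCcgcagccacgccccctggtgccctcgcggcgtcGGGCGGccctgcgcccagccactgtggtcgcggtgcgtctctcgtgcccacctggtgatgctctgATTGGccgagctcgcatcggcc
Cyp51 (chr5:4104698-4104947, - strand): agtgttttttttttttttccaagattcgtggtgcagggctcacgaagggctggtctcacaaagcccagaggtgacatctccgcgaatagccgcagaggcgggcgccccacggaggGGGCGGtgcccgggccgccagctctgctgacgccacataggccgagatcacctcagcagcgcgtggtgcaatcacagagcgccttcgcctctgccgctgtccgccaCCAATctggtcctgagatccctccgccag
All 5 promoters held CCAAT, against 33.8% of the 32851 promoters of the table over the same 250 bases, and all 5 held GGGCGG, against 32.7%. TCACNCCAC was found in *Hmgcs1* alone, beginning 137 bases before the start, and in 1.05% of all promoters. CACGTG was found in *Insig1* alone, 101 bases before the start, and in 6.02% of all promoters. Of the 13 other enzymes of the pathway in the table, 12 held CCAAT, 11 held GGGCGG, 3 held CACGTG and 0 held TCACNCCAC. None of these letters shows binding. Only this form of the sterol regulatory element was searched, so a promoter without a match is not shown to lack the element.

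Levels are log2 signals, and 0 stands for the 75th percentile of all probes of the array in question, with 1 unit for a factor of 2. A level can be compared between samples for a gene but not between genes. The representative probes were well above background on all 24 arrays and were saturated on none. The 75th percentile of intensity ranged from 560.1 to 1683 over the arrays, and 56.5% to 72.7% of the probes were well above background. *Terf2ip*, the gene for RAP1, was at 0.95 to 1.80 in the WT tissues and 0.48 to 1.66 in the *Rap1* KI/KI tissues, and its probe does not tell the alleles apart. In WT mice the 8 hepatocyte markers were called higher in liver than in every other tissue, the 8 neuronal markers were higher in brain than in liver and heart (7 of 8 against muscle), the 8 skeletal muscle markers were higher in muscle than elsewhere, and 6 of 7 heart muscle markers were higher in heart than in muscle. Some libraries also held other transcripts. In the brain of WT1 8 of 8 hepatocyte markers were well above background, against 6 in each other brain. Their median level was -0.99, against -5.17 to -3.29, and *Alb* was at 0.34, against -6.24 to -4.06. Their summed level there, 61.4, lay within the 24.6 to 102 of the other brains. The muscle of KI3 had a summed level of 8 neuronal markers of 56.7, against at most 24.5 in the other muscles (8 of 8 well above background in KI1 and KI3, and 3 or 4 in the others), and fat cell markers varied widely in heart and muscle, as described below.

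In WT mice, the question was how the tissues differ in these genes. All 8 were higher in liver than in every other tissue, by 1.62 to 3.75 log2 units over brain, 3.09 to 7.56 over heart and 2.03 to 6.35 over muscle (limma on 24 arrays, n = 3 per group, largest adjusted p by Benjamini-Hochberg 0.0008, over 42463 probes). Probes higher in liver made up 39.4% of all tested against brain, 28.3% against heart and 29.2% against muscle. The median difference of all probes was 0.32 over brain, 0.06 over heart and -0.03 over muscle, and all 8 genes lay above it. In bulk tissue, fewer cells of a type and less RNA per cell cannot be told apart, and RNA of liver and brain was extracted with a different kit from that of heart and muscle, so that kit and tissue cannot be told apart between those pairs. Slide and tissue coincide in part, since all livers lay on 1 slide and all muscles on another.

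**Figure D1:**
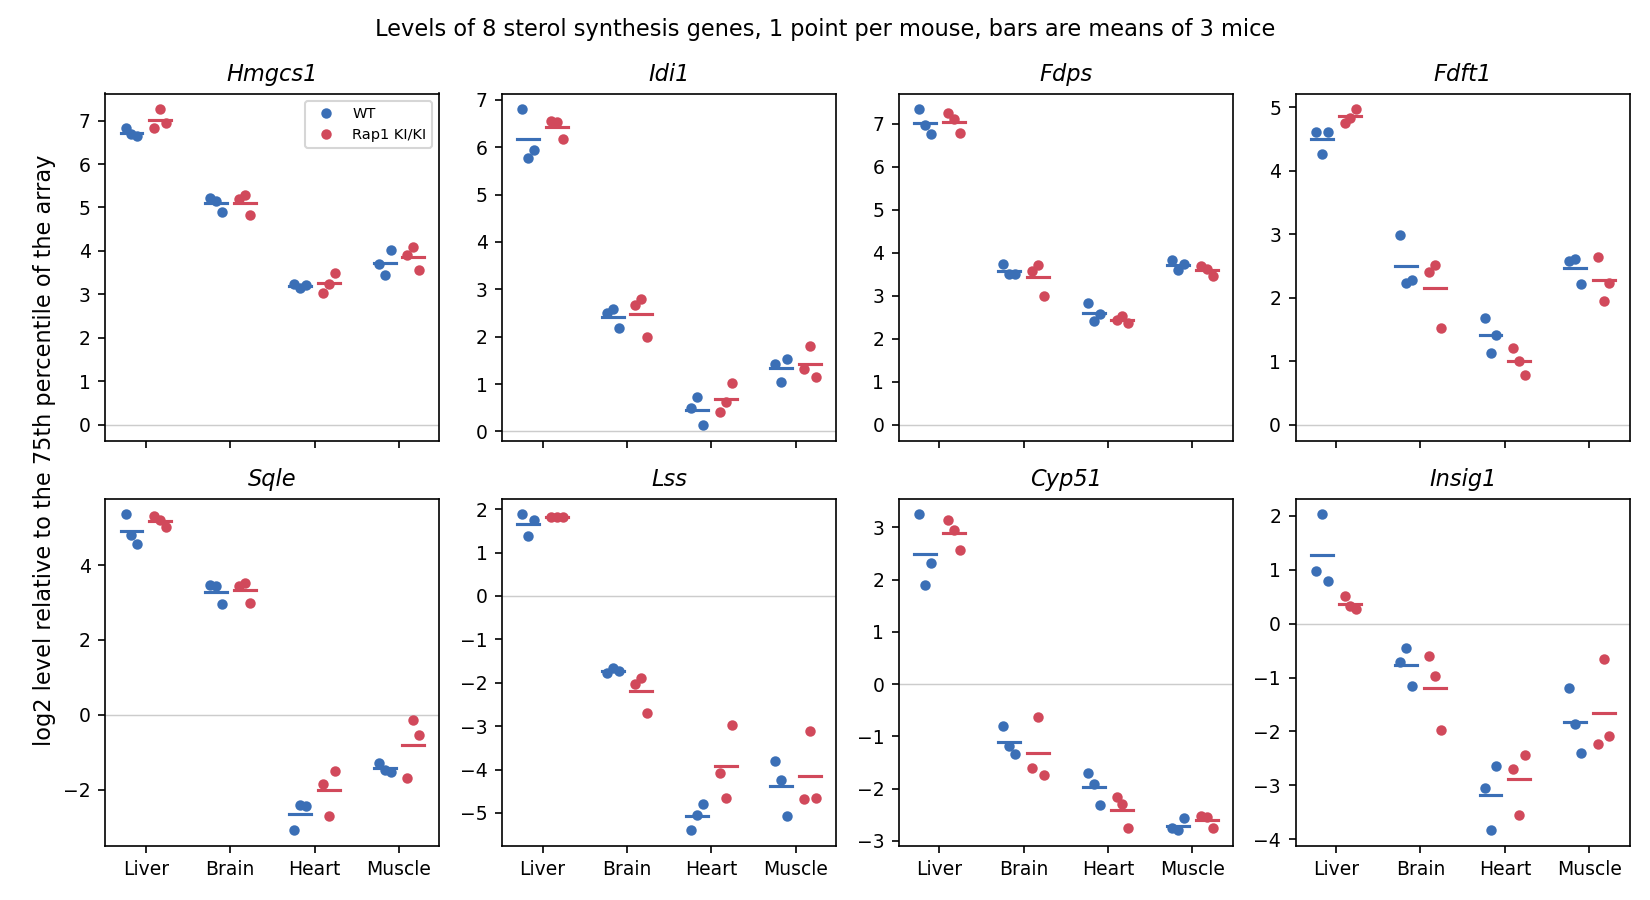
Log2 level, with 0 at the array's 75th percentile (y axis), of each of the 8 genes in 4 tissues (x axis), with 1 point per mouse and a bar at the mean of 3 mice, WT in blue and *Rap1* KI/KI in red. Every liver point lies above every point of the other tissues for all 8 genes, and each panel has its own scale.

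*Hmgcs1* encodes the cytosolic HMG-CoA synthase of the early part of the chain. Its level in the WT livers was 6.82, 6.68 and 6.65, in the brains 5.22, 5.16 and 4.90, in the hearts 3.25, 3.15 and 3.21, and in the muscles 3.71, 3.45 and 4.03 (WT1, WT2 and WT3 in each). The liver was 3.09-fold above the brain (difference 1.63, standard error 0.20, limma adjusted p = 6.1e-07) and 11.4-fold above the heart. Liver, brain and the striated muscles did not overlap, and heart and muscle were the only neighbours not called different (limma adjusted p = 0.051, or 0.048 with the mouse as a block in the paired design). The second *Hmgcs1* probe was far dimmer, at -3.15 on average over 6 livers and -4.73 over 6 brains, and was not tested in heart and muscle.

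*Idi1* and *Fdps* encode the isomerase and the synthase that build farnesyl pyrophosphate, the branch point to sterols and prenylated proteins. *Idi1* was at 6.80, 5.78 and 5.93 in WT liver, 2.50, 2.58 and 2.19 in brain, 0.50, 0.72 and 0.14 in heart, and 1.42, 1.05 and 1.53 in muscle. Its 4 tissues were all distinct from their neighbours in the order liver, brain, muscle, heart (limma adjusted p 7.3e-10, 0.0027 and 0.023). *Fdps* was at 7.34, 6.97 and 6.76 in WT liver, 3.75, 3.50 and 3.50 in brain, 2.84, 2.41 and 2.57 in heart, and 3.83, 3.59 and 3.73 in muscle. It stood 10.9-fold higher in liver than in brain and 21.3-fold higher than in heart. *Fdps* was the only one of the 8 with a lower mean in brain than in muscle, with a difference of -0.14 (95% interval -0.57 to 0.30, limma adjusted p = 0.60), which became 0.49 with an adjusted p of 0.017 under quantile normalization.

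*Fdft1* and *Sqle* encode squalene synthase and squalene epoxidase, the first steps that commit carbon to sterols, and the latter is a second point of control. *Fdft1* was at 4.61, 4.27 and 4.61 in WT liver, 2.99, 2.24 and 2.28 in brain, 1.68, 1.13 and 1.41 in heart, and 2.58, 2.61 and 2.21 in muscle. Brain and muscle overlapped (difference 0.03, 95% interval -0.53 to 0.60). The second *Fdft1* probe was much dimmer, at -4.76 to -4.04 on average in the 4 tissues, and with the mean over both probes brain and heart were not called different (difference 0.44, limma adjusted p = 0.21). *Sqle* had the widest range of the 8, at 5.36, 4.80 and 4.58 in WT liver, 3.48, 3.44 and 2.96 in brain, -3.08, -2.42 and -2.45 in heart, and -1.30, -1.49 and -1.52 in muscle. It was 3.07-fold higher in liver than in brain (limma adjusted p = 0.00044), and from brain to heart it fell by a further 61.5-fold (difference 5.94, standard error 0.35, limma adjusted p = 6.6e-11). Liver and brain thus lay together above the 75th percentile for *Sqle*, and both striated muscles lay below it.

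*Lss* encodes lanosterol synthase, which closes the sterol rings, and *Cyp51* the demethylase that acts next. *Lss* was at 1.88, 1.38 and 1.74 in WT liver, -1.78, -1.66 and -1.72 in brain, -5.39, -5.04 and -4.79 in heart, and -3.80, -4.23 and -5.08 in muscle. Liver was 10.4-fold above brain and 107-fold above heart, and heart and muscle overlapped and were not called different (limma adjusted p = 0.23). *Cyp51* was at 3.25, 1.89 and 2.32 in WT liver, -0.80, -1.18 and -1.33 in brain, -1.70, -1.92 and -2.31 in heart, and -2.76, -2.79 and -2.57 in muscle. It alone had a lower mean in muscle than in heart, by 0.73 (limma adjusted p = 0.093). Its call between brain and heart (difference 0.88, limma adjusted p = 0.025) was lost without WT2 or WT3 (adjusted p = 0.060 and 0.11) and with quantile normalization or normexp background correction (adjusted p = 0.076 and 0.057).

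*Insig1* holds the SREBP escort in the endoplasmic reticulum and is itself induced by SREBP2, so that it acts as a brake. It was at 0.98, 2.03 and 0.79 in WT liver, -0.71, -0.46 and -1.15 in brain, -3.06, -3.83 and -2.65 in heart, and -1.19, -1.87 and -2.40 in muscle. Liver was 4.11-fold above brain and 21.8-fold above heart. Brain and muscle were not called different (difference 1.05, standard error 0.47, limma adjusted p = 0.063).

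Across the 8 genes, liver was the highest tissue each time and heart the lowest for 7. All 8 were higher in brain than in heart (0.88 to 5.94 log2 units), where 25.6% of all probes were called that way. In brain against muscle 5 were higher in brain (25.9% of all probes) and 3 were not called. Of the 8 genes, 5 were higher in muscle than in heart (16% of all probes) and 3 were not called. This last count fell to 2 without WT1 and to 2 without WT2. Of 7 fat cell markers, 6 were also called higher in WT muscle than in WT heart (median heart minus muscle -4.69). Their part in this contrast was not tested. In *Rap1* KI/KI mice the counts were 8, 8 and 8 for liver over brain, heart and muscle (39.6%, 29.2% and 29.4% of all probes), 8 for brain over heart (22.9%), 5 for brain over muscle (23.9%) and 4 for muscle over heart (14.8%). Without KI3, whose muscle held neuronal transcripts, they were 7, 8, 8, 8, 5 and 6. Under quantile normalization, *Hmgcs1* and *Sqle* stood above brain in WT liver by 0.33 and 0.71 (limma adjusted p = 0.11 and 0.059), in place of 1.63 and 1.62, and the median of all probes moved to 0.19.

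The rest of the pathway was read from a list of 15 other enzymes. In WT liver against brain 14 were higher and 1, *Ggps1*, was lower (difference -2.68, standard error 0.33, limma adjusted p = 5.5e-07), as were 29.9% of all probes. Its product serves protein prenylation, a branch off the sterol route. Against heart 13 were higher, *Ggps1* was lower (24.3% of all probes) and *Lbr* was not called. Against muscle 13 were higher and *Ggps1* and *Lbr* were lower (27.4% of all probes). *Lbr* encodes a protein of the inner nuclear membrane that is also a sterol reductase. Its counterpart *Tm7sf2*, which carries out the same reduction in the endoplasmic reticulum, was higher in liver by 4.68 over brain, 6.53 over heart and 5.05 over muscle. The largest difference among the 15 was that of *Acat2*, the cytosolic thiolase at the start of the chain, at 5.40 over brain and 7.90 over heart.

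**Figure D2:**
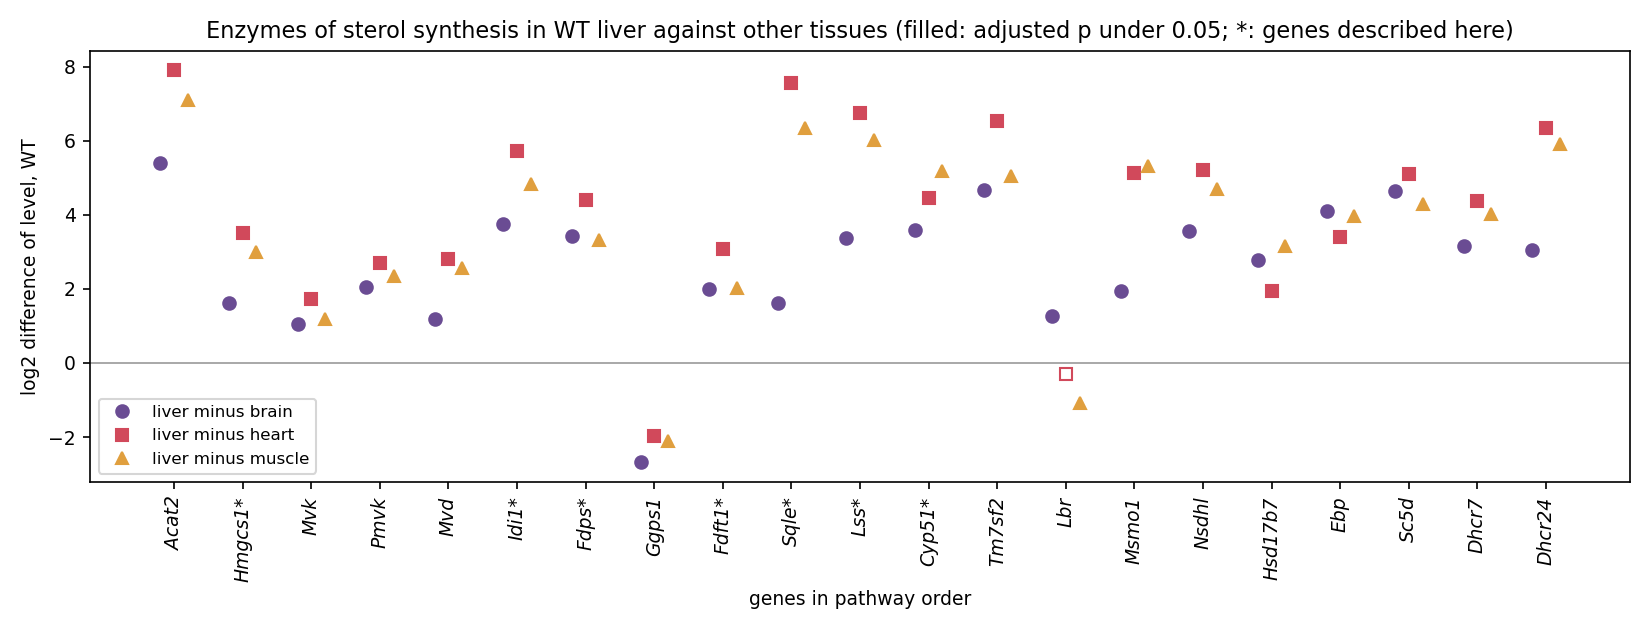
Log2 difference of level in WT mice, liver minus brain (circles), heart (squares) or muscle (triangles), for 21 enzymes in pathway order, with 7 of the genes described here marked by an asterisk and filled symbols at a limma adjusted p under 0.05 (n = 3 per tissue). All symbols of the marked genes are filled and above 0, and *Ggps1* and *Lbr* are the genes with points below 0.

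Of 7 genes of the SREBP machinery, 6 were higher in WT liver than in brain, 7 than in heart and 4 than in muscle. *Srebf2*, which encodes SREBP2 itself, was higher by 0.90 over brain (standard error 0.26), 1.76 over heart and 2.13 over muscle (limma adjusted p 0.0047, 9.7e-06 and 8.0e-07), and *Scap* by 1.96, 2.49 and 2.92. *Mbtps2*, a protease that frees SREBP, was lower in liver than in brain (-0.86) and muscle (-1.37). Of 6 genes of sterol uptake and transport, 5 were higher in liver than in brain and 6 than in heart.

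The main question of the study design was whether *Rap1* KI/KI differs from WT within a tissue. Within no tissue did limma call any of the 8 genes (0 of 8 at an adjusted p under 0.05). The share of all probes called was 0% in each (35241 probes in liver, 37836 in brain, 34848 in heart and 32384 in muscle). At an unadjusted p under 0.05 there was 1 of the 8 in liver, 0 in brain, 1 in heart and 0 in muscle, where 2.16%, 2.64%, 7.31% and 2.47% of all probes stood. The median 95% interval of the 8 reached 0.58 to 0.63 log2 units to either side of the estimate, which is an interval for a gene taken alone. A call after adjustment over all probes needs a larger difference than that with 3 mice against 3, and an exact permutation test cannot go below p = 0.1. *Rap1* KI/KI mice lay wholly above or below WT mice at 4 of the 32 combinations of gene and tissue, 2 in liver, 1 in brain, 1 in heart and 0 in muscle. Of all probes, 6.22% did so in liver, 7.84% in brain, 14.2% in heart and 6.15% in muscle.

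**Figure D3:**
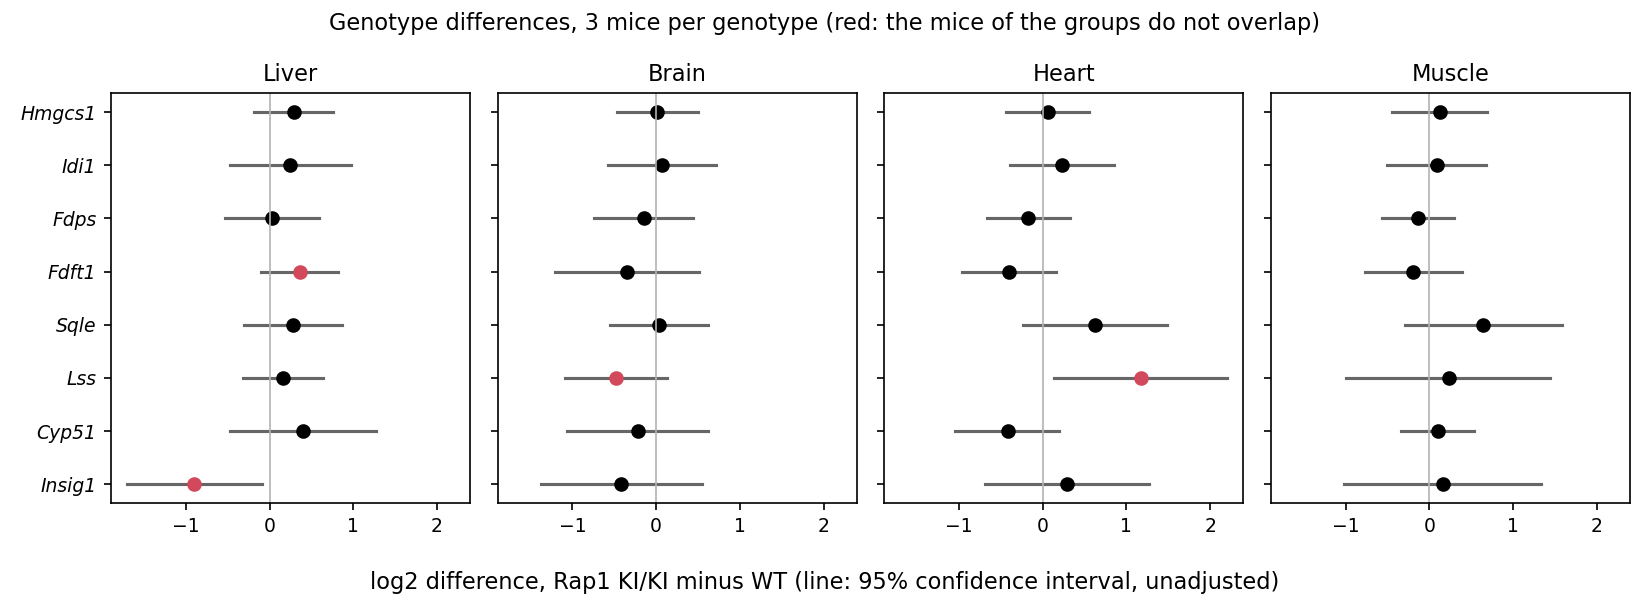
Log2 difference, *Rap1* KI/KI minus WT, of each gene in 4 tissues, with the unadjusted 95% interval from limma (n = 3 per genotype). Red points mark the 4 combinations in which the mice of the genotypes do not overlap, and 30 of the 32 intervals include 0.

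In liver, *Insig1* was the gene with the largest difference. It was at 0.98, 2.03 and 0.79 in the WT mice and 0.51, 0.33 and 0.27 in the *Rap1* KI/KI mice, so that all 3 *Rap1* KI/KI livers lay below all 3 WT livers (3.74% of all probes did). The difference was -0.90 (standard error 0.34, unadjusted p = 0.034, limma adjusted p = 1, two-sided exact permutation p = 0.1), and the adjusted p ran from 0.44 to 1 over 14 alternatives. Without WT2, the highest liver, the difference was -0.51. The other 7 genes had positive differences of 0.03 to 0.40, beside 43.8% of all probes with a positive one, and the median of the 8 was 0.26 (all probes -0.04). It was 0.08 without WT2. Of these, *Fdft1* did not overlap, at 4.61, 4.27 and 4.61 in WT and 4.76, 4.84 and 4.97 in *Rap1* KI/KI livers (difference 0.36, standard error 0.19, limma adjusted p = 1), as was the case upward for 2.48% of all probes. *Fdps* had the smallest difference, 0.03, which was -0.10 without WT3. *Cyp51* had the largest, 0.40, which was 0.10 without WT2 and 0.78 without WT1. The second, dim *Hmgcs1* probe was at 0.92 (standard error 0.31, limma adjusted p = 1), against 0.29 for the bright probe, and its mice overlapped. The summed level of 10 genes induced by fasting was 918 to 935 in the WT livers and 980 to 1180 in the *Rap1* KI/KI livers, and its part in these differences was not tested. All 8 hepatocyte markers had negative differences (median -0.31), with a summed level of 3790 in WT2, 2350 to 2550 in the other WT livers and 1890 to 2630 in the *Rap1* KI/KI livers. Of 5 fat cell markers tested in liver 4 had positive differences, and the summed level of the 7 was 33.1 in KI1 and 7.18 to 11.9 in the others. The markers did not share this rise in KI1. *Cidec* was at 4.09 there and 0.27 to 1.58 in the other livers. *Adipoq* was at -5.32 in KI1, and *Plin1* was not well above background. The liver of WT2 also had the lowest 75th percentile of intensity of the 6, 663.6 against 1129 to 1683. The part of these in the differences was not tested.

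In brain, 5 of the 8 differences were negative and the median was -0.19 (all probes -0.05). It was 0.03 without KI3, -0.07 without WT1 and -0.41 without KI2. *Lss* was at -1.78, -1.66 and -1.72 in WT and -2.02, -1.88 and -2.70 in *Rap1* KI/KI brains, which did not overlap (3.66% of all probes in this direction). The difference was -0.48 (standard error 0.25, limma adjusted p = 1), and -0.23 without KI3, the lowest brain. That brain stood apart by other transcripts, with a summed level of 6 macrophage markers of 64.1 against 26.0 to 31.0 in the other 5 brains, of 6 astrocyte markers of 98.4 against 47.2 to 64.8, and of 8 neuronal markers of 272 against 309 to 424. The part of these, and of the hepatocyte transcripts in the brain of WT1 given above, in the brain differences was not tested. The remaining differences ran from -0.42 for *Insig1* to 0.07 for *Idi1*.

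In heart, *Lss* was at -5.39, -5.04 and -4.79 in WT and -4.09, -4.65 and -2.98 in *Rap1* KI/KI mice, and all of the latter were higher (6.05% of all probes). The difference was 1.17 (standard error 0.44, unadjusted p = 0.033, limma adjusted p = 0.66), with an adjusted p of 0.49 to 1 over 16 alternatives. It was 0.39 after normexp background correction and 0.70 without KI3, the highest heart. *Sqle* was at -3.08, -2.42 and -2.45 in WT and -1.84, -2.70 and -1.51 in *Rap1* KI/KI hearts, which overlapped (difference 0.63, standard error 0.36, and 0.38 without KI3 or 0.97 without KI2). The other 6 genes differed by -0.42 to 0.29, and the median of the 8 was 0.14 (all probes -0.01). It was 0.00 without KI3, 0.00 without WT2 and -0.07 without KI1 and KI3.

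The hearts of KI1 and KI3 stood apart by fat cell transcripts, and also by neuronal markers, given at the end of this paragraph. Of 7 fat cell markers 6 were tested in heart, and all 6 had positive differences, 5 of them at an unadjusted p under 0.05, with *Adipoq*, a hormone of fat cells, at 4.34 and *Plin1*, a lipid droplet protein, at 3.83 (limma adjusted p = 0.66 for both). The summed level of the 7 markers was 198, 189 and 208 in the WT hearts and 316, 238 and 577 in the hearts of KI1, KI2 and KI3. No WT heart lacked them, since 6 of 7 were well above background in each. Single markers differed from the sum. *Adipoq* was at -4.50 in WT1, 0.45 in WT2 and -0.38 in WT3, and *Plin1* at -5.25, -1.52 and -1.63. The sum of WT1 nevertheless lay between those of WT2 and WT3. In KI2 these markers were at 0.17 and -1.72, within the WT range, although its sum was above that of every WT heart. Without KI1 and KI3, a choice made after seeing the data, the single KI2 heart was 0.42 above WT for *Lss* and -0.05 for *Sqle* (limma adjusted p = 1 for both, with KI2 taken to vary like the WT hearts). The markers were compared with the 8 genes after seeing the data as well. Over the 6 hearts, *Lss* followed the log2 sum of the markers with Pearson's r = 0.98 (exact permutation p = 0.0042, adjusted p = 0.067 over 16 relations by Benjamini-Hochberg) and Spearman's rho = 0.94 (exact permutation p = 0.017, adjusted p = 0.26), and r was 0.73 without the 2 hearts farthest from the median. For *Sqle*, r was 0.86 (exact permutation p = 0.022, adjusted p = 0.17) with rho = 0.60 (exact permutation p = 0.24, adjusted p = 0.48), and r was -0.08 without the farthest 2, so that it rests on those hearts. *Cyp51* ran the other way, with r = -0.81 (exact permutation p = 0.057, adjusted p = 0.23) and rho = -0.71 (exact permutation p = 0.14, adjusted p = 0.37), and r was -0.70 without the farthest 2. *Fdft1* and *Fdps* had negative r as well (-0.70 and -0.56), and the remaining 3 genes had r of 0.60 to 0.65 (adjusted p = 0.30 for these 5, exact permutation). With both measures centred on the mean of the genotype, r over the 6 hearts was 0.95 for *Lss*, 0.76 for *Sqle* and -0.65 for *Cyp51* (exact permutation p = 0.083, 0.28 and 0.22 over the 36 orders within genotype, adjusted p = 0.44 for each). Centred on the slide, r was 0.97, 0.81 and -0.76 (exact permutation p = 0.042, 0.15 and 0.17 over 48 orders, adjusted p = 0.34 for each). In the hearts of KI1 and KI3, 8 and 7 of 8 neuronal markers were well above background, against 4 to 6 in the other hearts. The median levels of these markers were -2.08 and -1.13, against -4.54 to -3.38. Their summed levels, 28.9 and 35.9, lay within the 20.2 to 44 of the other hearts. The part of fat cells, or of these neuronal transcripts, in the heart differences was not tested.

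In muscle, none of the 8 genes had genotypes that did not overlap (6.15% of all probes had), and the median difference was 0.11 (all probes -0.05). The median was -0.06 without KI2, 0.02 without WT2 or WT3 and 0.25 without KI3. *Sqle* was at -1.30, -1.49 and -1.52 in WT and -1.70, -0.14 and -0.55 in *Rap1* KI/KI muscles (difference 0.64, standard error 0.40, limma adjusted p = 0.96), and the difference was 0.32 without KI2, 1.10 without KI1 and 0.52 without KI3. KI2 was the highest mouse for 5 of the 8 genes in muscle, among them *Lss* (-3.11), *Sqle* and *Insig1* (-0.66), and the lowest for *Fdft1* (1.95). Its summed fat cell level was the highest of the 6 muscles, at 1240. The others were at 889 (WT1), 163 (WT2), 479 (WT3), 424 (KI1) and 448 (KI3). Over the 6 muscles the strongest relation with these markers was that of *Idi1*, with r = 0.84 (exact permutation p = 0.032, adjusted p = 0.17) and rho = 0.89 (exact permutation p = 0.033, adjusted p = 0.26), and r fell to 0.34 without the 2 farthest muscles, so that it rests on those. Centred on the genotype, r was 0.84 (exact permutation p = 0.11 over 36 orders, adjusted p = 0.44), and all 6 muscles lay on 1 slide. For *Insig1*, *Lss* and *Sqle*, r over the 6 muscles was 0.67, 0.57 and 0.57 (exact permutation, adjusted p = 0.30 for each). Without the 2 farthest muscles it was 0.94, 0.87 and -0.03.

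**Figure D4:**
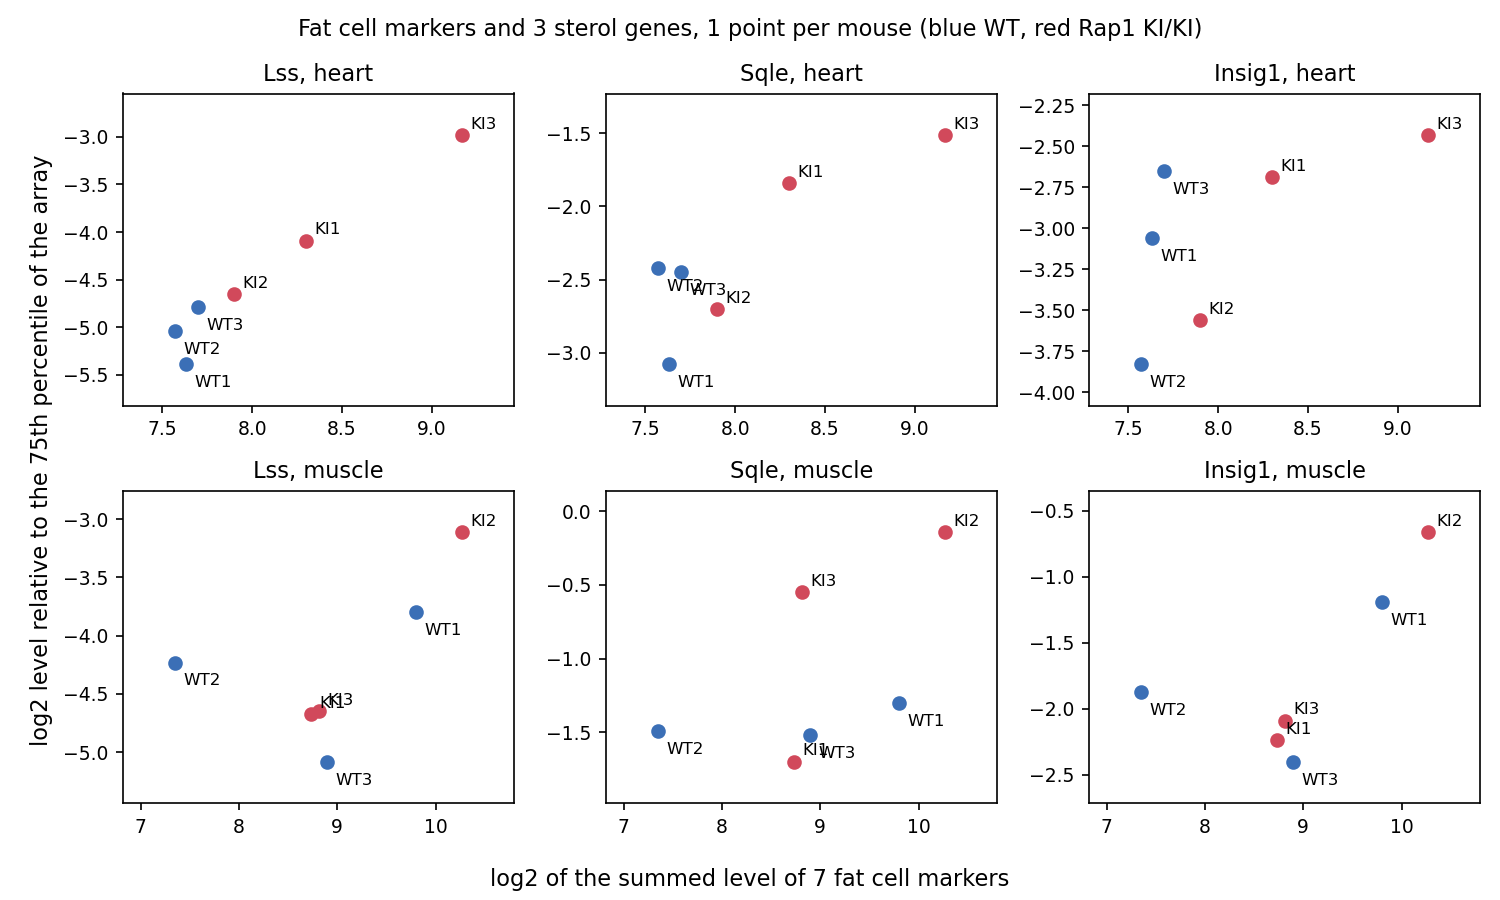
Log2 level of *Lss*, *Sqle* and *Insig1* (y axis) against the log2 summed level of 7 fat cell markers (x axis) in heart (top) and muscle (bottom), with 1 point per mouse, WT in blue and *Rap1* KI/KI in red. KI3 in heart and KI2 in muscle have the highest marker sums and the highest levels of the 3 genes shown. Among the genes not shown, KI3 is the lowest heart for *Fdft1*, *Fdps* and *Cyp51*, and KI2 is the lowest muscle for *Fdft1*.

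The genotype difference was not shown to depend on tissue. In the fit of 24 arrays, 0 of the 8 genes passed the test of genotype by tissue (0% of 42463 probes, and 2.91% at an unadjusted p under 0.05), and *Lss* had the smallest p of the 8, 0.083.

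Of those tested among the 15 other enzymes, 7 machinery genes, 6 uptake genes, 7 genes of sterol efflux and its receptors and 7 of esters and oxysterols, 0 passed the adjusted threshold for genotype in any tissue by limma. At an unadjusted p under 0.05 there were *Cyp7a1*, the first enzyme of bile acid synthesis, at 1.18 in liver (standard error 0.38), *Acat2* at -0.61, *Nr1h3*, an oxysterol receptor, at 0.51 and *Npc1l1*, a sterol transporter, at -0.99 in brain, and *Abcg1*, a sterol exporter, at 0.95 in muscle, with limma adjusted p of 0.96 to 1. Of all probes, 2.16% in liver, 2.64% in brain and 2.47% in muscle stood at that unadjusted p. In heart 7.31% of all probes did, and none of these genes. The median difference of the 15 enzymes was 0.05 in liver, -0.05 in brain, 0.00 in heart and 0.01 in muscle.

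Age was compared within each tissue, 2 mice of 5 months with 4 of 2 months, with genotype in the model. By limma, 0 of the 8 genes were called in any tissue (0.00284% of all probes in liver and 0% in the others). At an unadjusted p under 0.05 there was 1 of the 8 in liver and 0 in brain, heart and muscle, where 16.9%, 4.73%, 7.22% and 6.03% of all probes stood. The gene was *Cyp51*, at 3.25 and 3.14 in WT1 and KI1 and 1.89 to 2.95 in the younger mice (difference 0.76, standard error 0.27, limma adjusted p = 0.26). It was 0.38 without WT1 and 1.14 without KI1, each of which leaves 1 older mouse. *Idi1* was at 0.57 and *Sqle* at 0.44, and 6 of the 8 differences were positive with a median of 0.28 (all probes 0.14). *Srebf1*, which encodes the SREBP1 isoforms, had a negative difference in the same livers, -2.76 (standard error 0.34, limma adjusted p = 0.18). All 8 differences were positive in brain, with a median of 0.22 (all probes 0.04), and the older brains lay on another slide than the younger, so that age and slide cannot be told apart. The medians were 0.01 in heart and 0.04 in muscle.

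The spread between mice of a group was near the middle of all probes. The median percentile of the 8 standard deviations among all probes was 42.2 in liver, 50 in brain, 40.2 in heart and 45.8 in muscle. The steadiest were *Fdps* and *Cyp51* in muscle (standard deviations 0.12 and 0.13 log2 units), and the most variable *Lss* (0.78) and *Insig1* (0.75) in the same tissue. *Insig1* was above the 75th percentile of spread in all 4 tissues (75.1 in liver, 75.5 in brain, 78.7 in heart and 90 in muscle).

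In some tissues the 8 genes moved together from mouse to mouse. In brain, KI3 was below the mean of its genotype for 8 of 8 genes, by 0.48 on average, and was the lowest of the 6 mice for 7. Of all probes 58.3% were below that mean in KI3, against 39.4% to 50.4% in the other brains, and this is the brain with the raised macrophage and astrocyte and the low neuronal markers given above. KI2 was above for 8 of 8, by 0.32 on average, and WT3 was at or below for 8 of 8, by 0.21 on average. Deviations within a genotype cancel out, so the low values of KI3 by themselves push those of KI1 and KI2 up. The direction of KI2 is therefore not a separate observation. In liver, WT1 was the highest of the 6 mice for 5 genes. It is the only WT mouse of 5 months, so that age and mouse cannot be told apart there. Of all probes 39.4% were below the group mean in the liver of WT1, against 56.1% in WT2 and 56.7% in WT3. *Insig1* parted from the enzymes in liver, since WT2 was the highest liver for *Insig1*, 0.76 above its group mean. WT2 was below the group mean for the other 7, by as much as 0.60 for *Cyp51*. Across tissues, KI2 was 0.39 above its group on average in muscle and 0.24 below it in heart. WT1 was above its group on average in all 4 tissues, by 0.29 in liver, 0.17 in brain, 0.03 in heart and 0.20 in muscle, and WT3 was below in liver, brain and muscle (-0.17, -0.21 and -0.12) and above by 0.04 in heart.

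**Figure D5:**
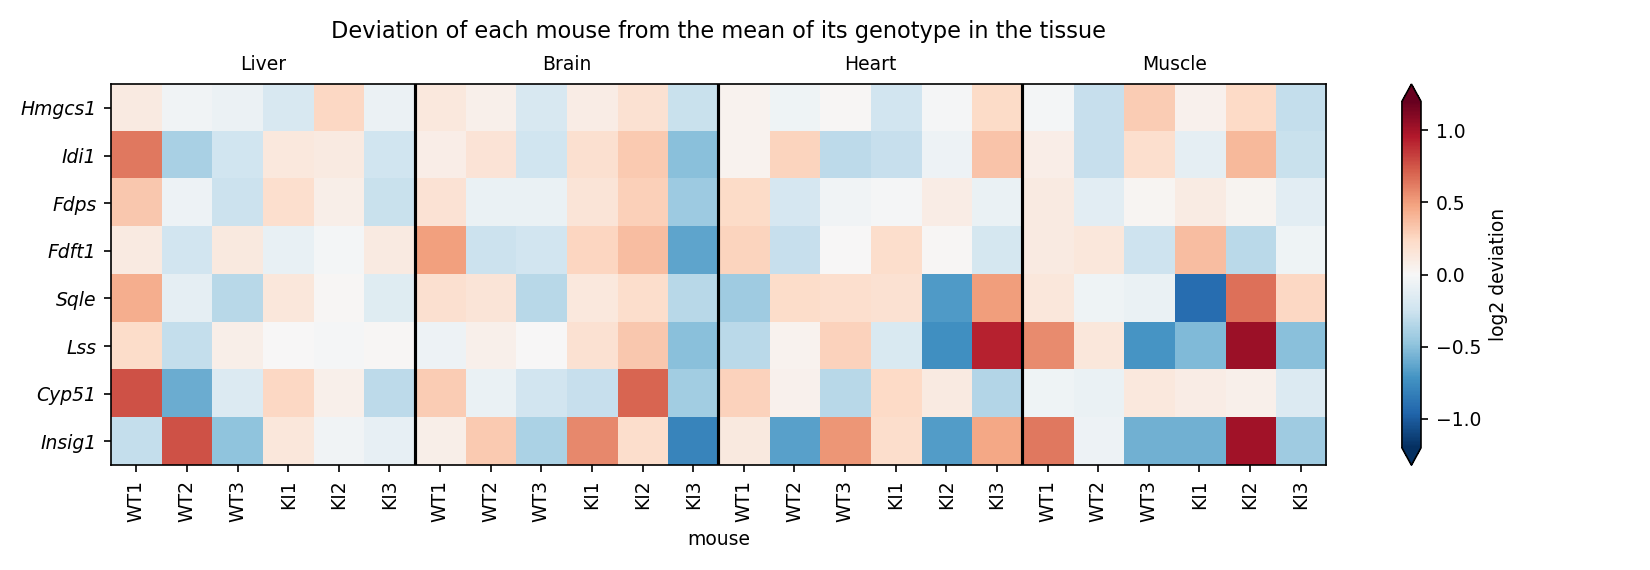
Deviation of the log2 level of each gene (rows) in each mouse (columns, in 4 blocks by tissue) from the average of the 3 mice of its genotype in that tissue, red above and blue below. The brain column of KI3 is blue for all 8 genes and that of KI2 is red for all 8, and the liver column of WT2 is blue except for *Insig1*. Deviations within a genotype cancel out in each tissue, so the columns of its mice are not independent.

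The genes whose deviations were most like the mean deviation of the 8 over the 24 arrays, of 14016 genes compared, were *Echdc1* (Pearson's r = 0.85), *Rdh11* (0.83), *1700037H04Rik* (0.82), *Bcap31* (0.81) and *Chp1* (0.79). *Pmvk*, the phosphomevalonate kinase of the same pathway, was at 0.81. The members themselves, each of which is part of that mean, ran from 0.35 for *Fdft1* and 0.49 for *Cyp51* up to 0.77 for *Idi1*. The arrays of a mouse and tissue share scaling and RNA, and no test was made of this order.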

How the data were processed

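What the authors deposited is the intensity of each spot, background-subtracted and detrended by Feature Extraction 12.0.3.1, not normalized across arrays. The deposited series table holds score values, z-scores of log10 signals within each array (recomputed within 0.005). Levels are log2 intensities minus that of the array's 75th percentile, over non-control spots without an outlier flag, with spots of a probe averaged. Probes were named by accession through RefSeq (28331 of 55681). Testing required a signal well above background on 3 or more arrays of 6.

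Tests were limma 3.58.1 in R 4.3.3 (with statmod 1.5.0), two-sided, with Benjamini-Hochberg adjustment over all probes, within a tissue for genotype and age and over 24 arrays for tissues and genotype by tissue, and were checked on simulated data. Figures used matplotlib 3.10.9. Members, lists and the rule for named genes (all 8 members, at most 4 genes of the sterol lists per comparison and 3 of the marker lists, and the 5 most alike) were chosen with earlier results of these data known. *Ggps1*, *Lbr*, *Srebf2*, *Mbtps2* and *Pmvk* are named outside the rule in the tissue or likeness comparisons, chosen after their values were seen.

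Alternatives were quantile normalization, normexp (offset 50, on median signals), the deposited table, other filters and probe choices, a block for age or slide, eBayes with a trend or robust, and leaving out each mouse. The same mice gave all tissues, so the mouse was a block in the paired fit (consensus correlation 0.0186, with 36 tissue pairs of a mouse at -0.30 to 0.37). Some genes of the lists are not reported here by name. Other assays of the study were not analysed here.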

Additional observations from a re-analysis of the deposited data

Results flagged for a closer look

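The genotype difference of *Lss* was negative in brain (-0.48) and positive in heart (1.17), and limma called neither after adjustment. All 3 *Rap1* KI/KI brains lay below the WT brains, as was the case for 3.66% of all probes. All 3 *Rap1* KI/KI hearts lay above the WT hearts, as was the case for 6.05% of all probes. The brain difference minus the heart difference was -1.65 on the log2 scale (standard error 0.60). Its unadjusted limma p was 0.013 and its adjusted p 0.92 over 42463 probes, so that it did not pass the threshold. That unadjusted p was the smallest of the genes described here over all pairs of tissues. The limma test of genotype by tissue gave *Lss* an unadjusted p of 0.083. KI3 was both the lowest brain and the highest heart, and without it the differences were -0.23 and 0.70, with the brain difference minus the heart difference at -0.94 (standard error 0.57, limma adjusted p = 0.98). Beside it, the summed fat cell markers of the hearts were 189 to 208 (WT) and 238 to 577 (*Rap1* KI/KI), and those of the brains were 0.191 to 0.378 and 0.202 to 0.372. Taken alone, *Adipoq* overlapped between the hearts, at -4.50 to 0.45 in WT and 0.17 to 4.64 in *Rap1* KI/KI. The brain of KI3 had summed macrophage markers of 64.1, against 26.0 to 31.0 in the other brains. Their part in it was not tested. Groups of 3 mice were too small for the test of single outlying mice.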

How the results depend on the processing

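In WT mice, the genes called higher in liver than in heart and muscle numbered 8 under every alternative run, and those over brain 8 except under quantile normalization (6). In *Rap1* KI/KI mice those over brain were 7 without KI3. Brain over heart ranged from 7 to 8 and brain over muscle from 5 to 6, with each mouse left out and under the other alternatives. Muscle over heart ranged from 2 to 6 with each mouse left out, and was 6 with the mouse as a replicate block, which changed the call of *Hmgcs1* only. Normexp moved the median of all probes from -0.03 to -0.35 for liver minus muscle, from -0.22 to -0.59 for brain minus muscle and from -0.09 to -0.32 for heart minus muscle, and the 8 genes lay above that median in every pair with liver or brain as the first tissue under each scaling. For genotype, age, and genotype by tissue, 0 of the 8 were called under every alternative. The median difference in liver ranged from 0.08 to 0.38 with each mouse left out.

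Several differences that were not called changed sign. *Fdps* in liver, *Rap1* KI/KI minus WT, was -0.01 z-score units in the deposited table and -0.10 to 0.19 with each mouse left out. *Sqle* in heart was -0.05 without KI1 and KI3. *Fdps*, brain minus muscle in WT, was 0.49 under quantile normalization, where it was called (adjusted p = 0.017). *Fdft1* in that pair was -0.39 as the mean over its probes, -0.13 in *Rap1* KI/KI mice and -0.16 to 0.24 with each mouse left out. *Lss*, heart minus muscle, was 0.23 in *Rap1* KI/KI mice. The cause was not tested. Among single genes, 16 calls were lost and 9 gained over all alternatives, and 870 values kept their direction and side of the threshold.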
